A study of Homo sapiens with 12 samples.

Results

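The zinc finger genes of chromosome 19 were taken as every row of the deposited count table whose Ensembl identifier carries, in GENCODE 44 on GRCh38, a protein-coding symbol made of ZNF and digits, with a final A or B allowed, on chromosome 19. This rule found 246 of 60651 rows, and it used no measured value. Another 254 protein-coding ZNF genes lie on other chromosomes, and chromosome 19 holds 1226 other protein-coding genes. The study treated cholangiocarcinoma cells with decitabine, a cytosine analogue that traps and depletes DNA methyltransferases, and with talazoparib, an inhibitor of the DNA repair enzymes PARP1 and PARP2. RNA was sequenced from 2 established bile duct cancer lines, neither of which carried an engineered change in the labels. HUCCT1 cells, grown in RPMI1640, received DMSO vehicle or 1 µM decitabine. EGI-1 cells, grown in DMEM, received DMSO vehicle, 0.5 µM decitabine, 200 nM talazoparib or both agents at these doses (the combination). The column names of the talazoparib arm carry a 50, while its treatment label gives 200 nM. Every arm ran for 72 h and was sequenced as 2 libraries, and the labels do not say that the 2 came from separate cultures, so each p-value here measures the spread between these libraries, which may be technical.

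Zinc finger proteins of the C2H2 type read DNA with short loops that each hold a zinc ion, and a row of such fingers recognises a longer DNA word. Most of those encoded on chromosome 19 also carry a KRAB domain, which recruits the co-repressor TRIM28 and, through it, the histone methyltransferase SETDB1 and heterochromatin proteins. They arose by repeated local duplication, and many bind and silence transposable elements, while the genes themselves often carry heterochromatin over their bodies and some lose expression in tumours by promoter methylation. The members followed this plan. Their longest annotated proteins had a median of 592.5 residues and 12 fingers (range 1 to 36), and 206 of the 246 held a KRAB-like stretch while 40 did not. With a gap of more than 1000000 bases between starts as the border, 225 members fell into 7 clusters of at least 8 genes and 21 were scattered.

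Promoter windows from RefSeq (GRCh38.p14, 250 bases before to 50 after the start) were found for 216 members. The dinucleotide CG, the site of methylation, occurred a median of 20 times in a member's window and 14 times over all 27305 windows of the table. The 250 bases before the start of 6 members are printed because they show the range of CG content among genes that were silent in untreated HUCCT1, and they were chosen after their values had been seen. The first 3 genes rose above a floor of 3 counts per library when HUCCT1 was given decitabine and the last 3 did not. Capitals mark CG, which reads the same on both strands, and each sequence runs 5′ to 3′ on the strand of its gene.
ZNF541: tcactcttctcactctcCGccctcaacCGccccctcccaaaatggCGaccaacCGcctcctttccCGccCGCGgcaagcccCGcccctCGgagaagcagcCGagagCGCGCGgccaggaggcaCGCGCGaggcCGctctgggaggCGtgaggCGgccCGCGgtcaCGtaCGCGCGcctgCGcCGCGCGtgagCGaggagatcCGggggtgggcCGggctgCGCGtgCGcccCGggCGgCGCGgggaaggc
ZNF256: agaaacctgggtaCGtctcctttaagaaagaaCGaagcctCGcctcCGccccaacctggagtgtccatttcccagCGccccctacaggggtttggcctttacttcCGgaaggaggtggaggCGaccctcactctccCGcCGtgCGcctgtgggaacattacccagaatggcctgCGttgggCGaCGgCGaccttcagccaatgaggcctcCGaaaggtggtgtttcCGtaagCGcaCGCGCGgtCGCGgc
ZNF418: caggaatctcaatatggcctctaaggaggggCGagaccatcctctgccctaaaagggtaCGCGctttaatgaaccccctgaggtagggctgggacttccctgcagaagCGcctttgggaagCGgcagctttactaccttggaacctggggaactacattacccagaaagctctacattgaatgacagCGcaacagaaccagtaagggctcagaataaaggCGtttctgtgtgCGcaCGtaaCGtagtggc
ZNF71: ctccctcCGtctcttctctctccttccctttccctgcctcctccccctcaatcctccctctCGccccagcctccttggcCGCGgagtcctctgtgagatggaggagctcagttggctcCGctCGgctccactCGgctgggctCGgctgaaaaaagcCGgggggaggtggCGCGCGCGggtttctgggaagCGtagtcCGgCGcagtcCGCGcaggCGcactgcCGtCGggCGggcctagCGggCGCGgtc
ZNF724: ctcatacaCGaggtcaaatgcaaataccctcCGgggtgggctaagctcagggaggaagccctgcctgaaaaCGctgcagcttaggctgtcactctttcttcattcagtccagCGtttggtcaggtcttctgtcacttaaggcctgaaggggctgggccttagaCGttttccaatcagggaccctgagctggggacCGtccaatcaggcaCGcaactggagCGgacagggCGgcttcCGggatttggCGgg
ZNF66: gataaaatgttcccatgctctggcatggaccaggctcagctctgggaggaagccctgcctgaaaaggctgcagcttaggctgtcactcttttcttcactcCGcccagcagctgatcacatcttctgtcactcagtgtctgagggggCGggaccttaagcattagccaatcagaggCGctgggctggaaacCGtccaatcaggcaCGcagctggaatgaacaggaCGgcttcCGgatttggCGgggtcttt
ZNF541 (chr19:47573149-47573398, minus strand) held 39 CG in these 250 bases, a number that 2.54% of all promoters of the table reach. ZNF256 (chr19:57947707-57947956, minus strand) held 22, reached by 27.56% of promoters. ZNF418 (chr19:57935403-57935652, minus strand) held 10, reached by 51.94%. Of those that stayed silent, ZNF71 (chr19:56595052-56595301, plus strand) held 25 CG, which 21.29% of promoters reach. Since these 6 were picked by hand, they cannot show whether CG content goes with leaving the floor. ZNF724 (chr19:23250395-23250644, minus strand) held 11 and ZNF66 (chr19:20776054-20776303, plus strand) held 8, which 50.05% and 55.83% of promoters reach. All 6 held at least 1 CG, as did 93.61% of promoters over the same 250 bases.

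Library totals lay between 23139065 and 34965627 counts, and the members together took 2059 to 2090 CPM (counts per 1000000 counts of the library, scaled with TMM factors) in HUCCT1 and 2926 to 3159 in EGI-1. The biliary keratins KRT8, KRT18 and KRT19 were high in both lines, KRT7 stood at 6979 CPM in untreated HUCCT1 and 40.8 CPM in untreated EGI-1, and the hepatocyte markers ALB, APOA1 and TTR were close to 0. The library EGI-1 combination replicate 2 stood apart. It held 381 counts of PTPRC and 148 of CD3E, both leukocyte genes, against 1 to 7 and 0 to 4 in the other EGI-1 libraries. It also held 22 genes above 2 CPM that were below 0.2 CPM in the line's other libraries, so results of the combination are also given without it. In HUCCT1, decitabine moved CD3E from 0 and 1 to 17 and 23 counts and COL1A1, a fibroblast collagen, from 28.1 to 174 CPM, and 4 of the 6 biliary markers fell (edgeR). Their part in the results below was not tested.

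The members were transcribed at low levels, and at lower levels in untreated HUCCT1 than in untreated EGI-1. The median member stood at 2.56 CPM in HUCCT1 and 7.61 CPM in EGI-1. Per kilobase of exon, the highest levels in untreated HUCCT1 were those of ZNF865 at 22.0 CPM per kb, ZNF580 at 20.5, ZNF628 at 17.9, ZNF787 and, at 15.3 CPM per kb, ZNF460. In untreated EGI-1 they were those of ZNF146 at 20.8, ZNF460 at 18.5, ZNF787 at 18.2, ZNF121 at 17.4 and ZNF865 at 14.2 CPM per kb. ZNF787, ZNF460 and ZNF865 were thus among the 5 highest in both lines. Exons of ZNF580, ZNF146 and ZNF460 overlap those of neighbouring genes, which holds for 148 members in all, and reads of neighbours may be counted with theirs.

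**Figure D1:**
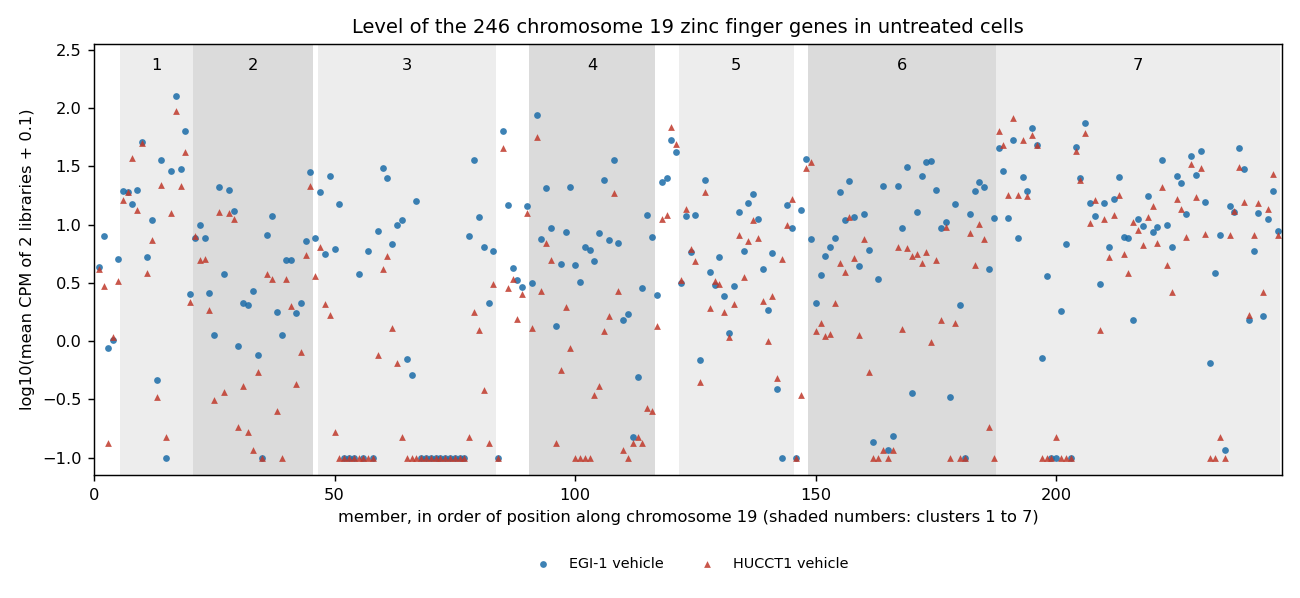
Level of each of the 246 members in the untreated lines. The x axis gives the members in order along chromosome 19, with clusters 1 to 7 shaded, and the y axis the log10 of the mean CPM of 2 libraries after adding 0.1. The HUCCT1 points lie at the bottom for most of cluster 3, where 25 of 37 members were at the floor, and are close to the EGI-1 points over much of cluster 7.

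Of the 246 members, 225 had a count in at least 1 of the 4 vehicle libraries, and their mean CPM was lower in HUCCT1 for 191 and higher for 34. Both HUCCT1 libraries lay below both EGI-1 libraries for 176 members, or 78.2%, where 31.1% of all rows with a count did so. They lay above for 23 members, or 10.2%, against 31% of all rows. With edgeR's quasi-likelihood test over the 12 libraries and Benjamini-Hochberg adjustment, 219 members passed the filter on low counts. Of these, 165 were called lower in HUCCT1, which is 75.3% where 27.3% of all genes tested were called lower, and 20 were called higher, which is 9.13% against 28.5%. The filter let 44 members through by their EGI-1 libraries only, and all 44 were called lower, as they had to be. Among the 172 that passed in both lines, in any arm, 121 were lower and 19 higher, with a median log2 difference of -0.67. The median was 0.03 over all genes that passed in both lines and -0.01 over all genes tested. The 172 still take in members that passed in HUCCT1 through decitabine libraries only, such as ZNF331, which had to be lower. ZNF genes of other chromosomes had 101 lower and 71 higher of 230 tested, and other protein-coding genes of chromosome 19 had 218 lower and 296 higher of 876, and the difference between these lists and the members was not tested. Because RNA was taken from whole cultures, fewer transcripts per cell and fewer cells with the transcript cannot be told apart. The libraries of the lines also differ in medium and in a mark in the column names, which cannot be told apart from line.

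The difference was uneven along the chromosome. To leave out members that passed through EGI-1 only, the counts here are of members that passed the filter in both lines, in any arm. Of these, 70.3% were lower, where 27.5% of all genes that passed in both lines were. Members that passed in HUCCT1 through decitabine libraries only, such as ZNF331, ZNF606 and ZNF256, remain in these counts and had to be lower. Cluster 3 (chr19:19668796-24129968, 37 members) had 11 of 11 lower in HUCCT1, with a median log2 difference of -2.92. Its summed level was 28.4 and 27.2 CPM in the HUCCT1 vehicle libraries and 258 and 259 CPM in those of EGI-1. Cluster 4 (chr19:36182276-37817300, 26 members) had 13 of 13 lower, with a median of -1.57, and summed to 108 and 92.8 CPM against 294 and 295 CPM. Cluster 6 (chr19:51571283-53580269, 39 members) had 27 of 30 lower and 2 higher, with a median of -1.97, and cluster 2 (chr19:11483427-12640098, 25 members) 11 of 15 lower and a median of -0.60. Neither sum overlapped between the lines. Clusters 1, 5 and 7 had medians of -0.46, -0.56 and -0.28, and 13 of the 19 members that were higher in HUCCT1 lay in cluster 7 (chr19:55476617-58481230, 59 members). The summed level of cluster 7 was 956 and 993 CPM in HUCCT1 and 1033 and 1050 CPM in EGI-1.

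Genes other than members within these spans were also mostly lower in HUCCT1 in clusters 3, 4 and 6, and were near balance in clusters 1 and 5. In cluster 3, 22 of 27 such genes tested were lower in HUCCT1 and 1 was higher (median -3.96), and in cluster 4, 17 of 18 were lower (median -4.75). No protein-coding one was tested in cluster 3, and only 2 were in cluster 4, both lower. Exons of 19 of the 37 members of cluster 3 and 19 of the 26 of cluster 4 overlap other genes, so the neighbours' counts may not be independent of the members'. In cluster 6, 21 of 29 were lower, and in cluster 7, 18 of 52 with 5 higher. In cluster 2, 12 of 21 were lower, but of the 4 protein-coding ones 1 was lower and 1 higher. Clusters 1 and 5 had 12 lower and 13 higher of 43, and 8 lower and 9 higher of 35. Unlike those of the members, these counts take in genes that passed the filter through EGI-1 only and so had to be lower. In the fit of the HUCCT1 libraries, only 8 such other genes were tested in cluster 3 and 5 in cluster 4. Of all genes tested between the untreated lines, 27.3% were lower and 28.5% higher. Among members that passed the filter in both lines, those with a KRAB-like stretch had 109 lower and 7 higher of 138 (median -0.88), and those without one 12 lower and 12 higher of 34 (median 0.03). Cluster and KRAB are not separate features of these genes, and their parts were not told apart.

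Some members were silent in one line and well expressed in the other. A member was taken to be at the floor of an arm when each of its libraries held 3 counts or fewer. In untreated HUCCT1 63 members were at the floor and in untreated EGI-1 29 were, with 28 in both, 35 in HUCCT1 alone and only ZNF229 in EGI-1 alone. ZNF528 had 0 and 1 counts in HUCCT1 and 669 and 582 in EGI-1, a ratio of CPM of 1301 with a 95% counting interval of 233 to 51427. ZNF43 had 0 and 0 counts in HUCCT1 and 477 and 440 in EGI-1, at least 159-fold higher there. ZNF93, which represses L1 retrotransposons, had 0 and 0 against 419 and 450 counts, at least 151-fold higher in EGI-1. The same contrast was seen for ZNF331, with 0 and 0 against 327 and 332 counts (at least 114-fold), and for ZNF71, with 0 and 0 against 197 and 195. ZNF493 had 1 and 2 against 322 and 307 counts (ratio 218, interval 74.3 to 1060.2), ZNF606 had 3 and 0 against 257 and 216 (interval of the ratio 55.8 to 798), and ZNF724 had 2 and 1 against 248 and 209 (ratio 158, interval 53.9 to 771). In the other direction ZNF229 had 153 and 147 counts in HUCCT1 and 0 and 0 in EGI-1, at least 45.9-fold higher in HUCCT1. Floors, bounds and intervals cover counting error only.

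**Figure D2:**
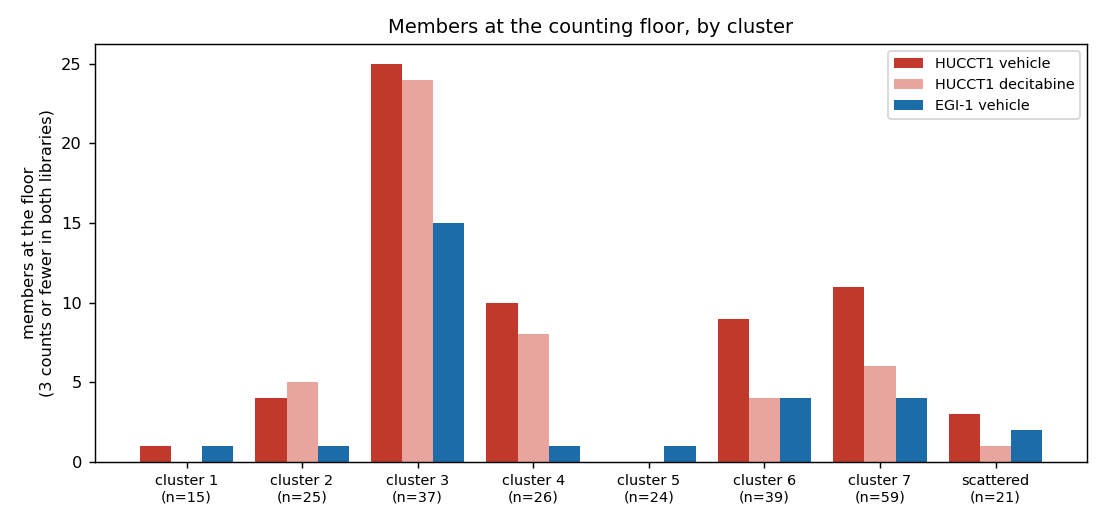
Number of members at the floor (3 counts or fewer in both libraries) by cluster, with the number of members of each cluster under its name. The bars give HUCCT1 vehicle, HUCCT1 decitabine and EGI-1 vehicle. Cluster 3 holds 25 of the 63 members at the floor in untreated HUCCT1 and 24 of the 48 there with decitabine, while clusters 6 and 7 fall from 9 to 4 and from 11 to 6.

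Given decitabine, HUCCT1 raised some of its silent members and changed others in both directions. In the fit of the 4 HUCCT1 libraries, 178 members passed the filter on low counts. Of these, 27 rose, which is 15.2% where 19.6% of all 22479 genes tested rose, and 17 fell, which is 9.55% against 13.9% (edgeR, adjusted p under 0.05). Both shares lay below those of all genes, and the median log2 fold change of the members was -0.01 against 0.00 for all genes. Of the risers, ZNF331, ZNF541, ZNF256, ZNF560, ZNF114 and ZNF606 passed the filter through their decitabine libraries only and therefore had to differ. Among the members that passed in both arms, 21 rose and 17 fell, with a median log2 fold change of -0.04. These counts were not set against all genes that passed in both arms. The share of 15.2% still includes the 6 members that had to differ. Over all 219 members with a count, filter aside, both decitabine libraries lay above both vehicle libraries for 66, or 30.1%, where 29.1% of all rows with a count did, and below for 47, or 21.5%, where 21.7% did. Among protein-coding rows with a count, to which all members belong, the shares were 37.3% above and 27.4% below. Without decitabine replicate 1, 16 members were called higher.

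ZNF331, an imprinted gene whose promoter is often methylated in gastric and colorectal tumours, gave 0 and 0 counts with vehicle and 38 and 24 with decitabine. The decitabine libraries were at least 10.1-fold higher (edgeR adjusted p = 3.53e-06), and they remained at 1.19 and 0.809 CPM, far below the 10.7 and 11.9 CPM of untreated EGI-1. ZNF560 gave 0 and 3 counts with vehicle and 36 and 52 with decitabine, a ratio of 28.9 (95% counting interval 9.56 to 143), with an adjusted p of 3.62e-06 by edgeR. It was at 0 in all 8 EGI-1 libraries. ZNF541, a chromatin factor of meiotic germ cells, gave 0 and 0 against 18 and 23 counts, at least 6.75-fold higher, and its EGI-1 libraries held 0 or 1 counts. ZNF256 gave 0 and 0 against 11 and 12 counts, at least 3.78-fold higher, and ZNF606 gave 3 and 0 against 16 and 30, a ratio of 15.1 (interval 4.85 to 75.8). In each of these 5 genes the vehicle and decitabine libraries did not overlap. Each passed the filter through its decitabine libraries only, so neither this separation nor the p-values add separate support.

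ZNF114 rose from 6 and 9 counts to 203 and 189 counts, or from 0.198 and 0.297 CPM to 6.34 and 6.38 CPM. The log2 fold change was 4.65 ± 0.31 (SE, n = 2 against 2, edgeR adjusted p = 8.64e-12). ZNF114 too passed the filter through its decitabine libraries only, so this p-value adds no separate support. ZNF699 rose from 4.02 and 3.50 CPM to 17.9 and 18.5 CPM, a log2 fold change of 2.26 ± 0.16 (adjusted p = 3.2e-11), and its 8 EGI-1 libraries lay between 4.21 and 5.72 CPM. Decitabine thus placed ZNF114 about midway to its EGI-1 level on the CPM scale and ZNF699 above every EGI-1 library. ZNF274, which brings SETDB1 to the bodies of other zinc finger genes, rose from 13.0 and 12.8 CPM to 27.3 and 25.8 CPM (log2 fold change 1.04 ± 0.13, adjusted p = 6.62e-07); it lies outside the rule for named genes and was chosen after its values were seen. Smaller levels rose for ZNF404 (10 and 11 to 25 and 35 counts), ZNF480 (15 and 12 to 36 and 35), ZNF701 (43 and 28 to 97 and 74) and ZNF350, a repressor that works with BRCA1 (33 and 31 to 71 and 67), with log2 fold changes of 1.48 ± 0.47, 1.35 ± 0.42, 1.23 ± 0.29 and 1.07 ± 0.30. The calls for ZNF404 and ZNF480 were each lost in 3 of 9 other settings. The other 15 rising members ranged from ZNF460 with a log2 fold change of 0.35 to ZNF320 with 0.93, and ZNF229, the member silent in EGI-1, was one of them with 153 and 147 counts under vehicle and 303 and 241 with decitabine.

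Among the members that fell, ZNF69 went from 13.1 and 11.8 CPM to 4.87 and 4.63 CPM, a log2 fold change of -1.40 ± 0.17 (edgeR adjusted p = 2.61e-07). ZNF175 went from 35.8 and 33.2 CPM to 13.9 and 12.8 CPM (log2 fold change -1.38 ± 0.13, adjusted p = 4.54e-09). It was one of the few members higher in untreated HUCCT1 than in EGI-1, where its 8 libraries lay between 6.04 and 8.01 CPM, so the fall left it still above them. ZNF865, the member with the highest level per kilobase in HUCCT1, went from 76.7 and 88.6 CPM to 35.5 and 45.0 CPM (log2 fold change -1.05 ± 0.12). ZNF254 fell by a like amount (-1.13 ± 0.27), and ZNF627 (-0.93 ± 0.22), ZNF799 (-0.87 ± 0.25), ZNF358 (-0.84 ± 0.15) and ZNF700 (-0.82 ± 0.17) fell by less on the log2 scale. The remaining 9 ranged from ZNF837 with -0.78 to ZNF557 with -0.37. The call for ZNF799 was lost without vehicle replicate 1 and without decitabine replicate 2. Cluster 2 held 5 of the 17 falling members among its 16 tested, ZNF69, ZNF627, ZNF799 and ZNF700 among them, and no member of that cluster rose. Of all genes tested, 13.9% fell and 19.6% rose, and the cluster was not tested against them.

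**Figure D3:**
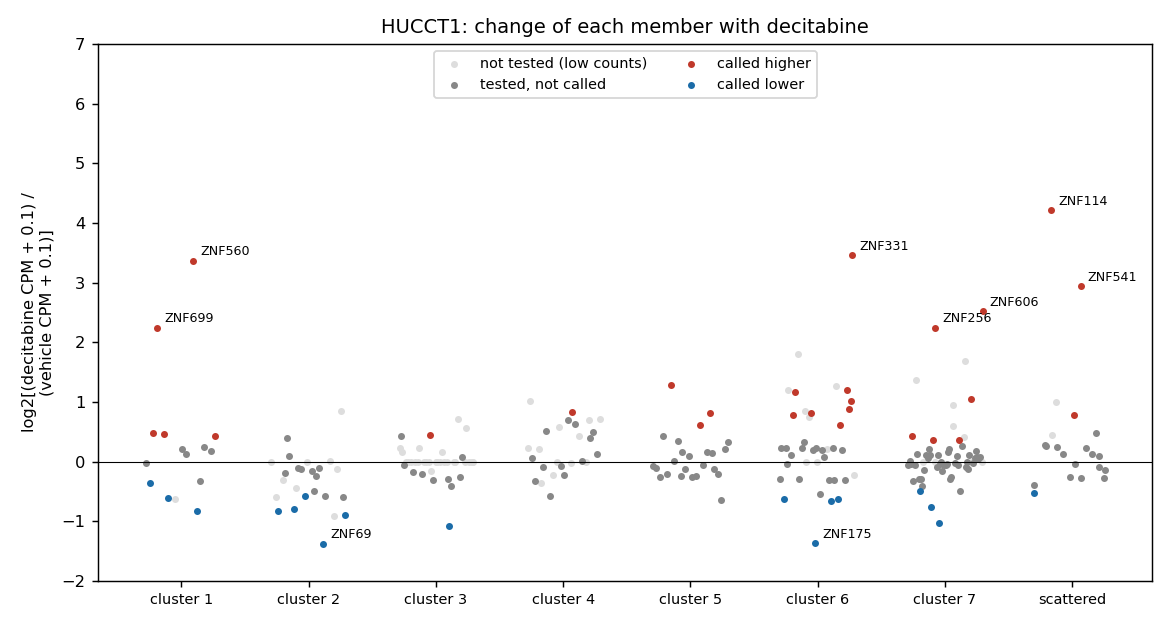
Change of each member in HUCCT1 with decitabine, as the log2 ratio of mean CPM after adding 0.1 to both arms (y axis), by cluster (x axis; points are spread sideways for legibility). Colours mark members called higher, called lower, tested without a call and not tested. Cluster 6 holds 8 members called higher and 4 called lower, and cluster 2 holds 0 and 5. Of all genes tested, 19.6% were higher and 13.9% lower.

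The rising members were spread over the chromosome. Cluster 6 held 8 of 30 tested, cluster 7 6 of 50, cluster 1 5 of 14 and cluster 5 3 of 24, while clusters 3 and 4 held 1 each of 11 and 14. Of all genes tested, 19.6% rose. The counts take in members that had to differ, ZNF331 in cluster 6, ZNF560 in cluster 1, and ZNF606 and ZNF256 in cluster 7. In terms of silence, 17 of the 63 members at the floor in untreated HUCCT1 were above it with decitabine, and 2, ZNF491 and ZNF878, entered it, so that 48 remained. The share of all rows that left this floor was not counted, so these numbers do not show a trait of the members. In cluster 3 only 1 of 25 left the floor, and this was ZNF253, with 4 counts in all with vehicle and 6 with decitabine. In cluster 6 5 of 9 left it and in cluster 7 5 of 11. Many of the 17 stayed very low, ZNF528 at 5 and 6 counts and ZNF880 at 5 and 3 counts among them, whereas untreated EGI-1 gave ZNF528 669 and 582 counts. With a floor of 10 counts, 12 of 73 members left it and 4 entered. In EGI-1 only 1 of 29 members at the floor, ZNF534, was above it with decitabine.

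The CG content of the promoter windows differed along with this. Members that left the floor and had a window (n = 14) held a median of 23.5 CG (range 13 to 49), those that stayed (n = 38) 15 (range 8 to 42), and those above the floor without treatment 21. With the windows cut into 3 parts by CG count, 2 of 27 silent members left the floor in the lowest part, 5 of 11 in the middle part and 7 of 14 in the highest. Cluster 3, whose windows held a median of 10 CG (range 8 to 18), makes up much of the lowest part. Outside cluster 3 the counts were 2 of 8, 5 of 11 and 7 of 14. These shares are descriptions, without a test, and methylation itself was not measured in the libraries.

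**Figure D4:**
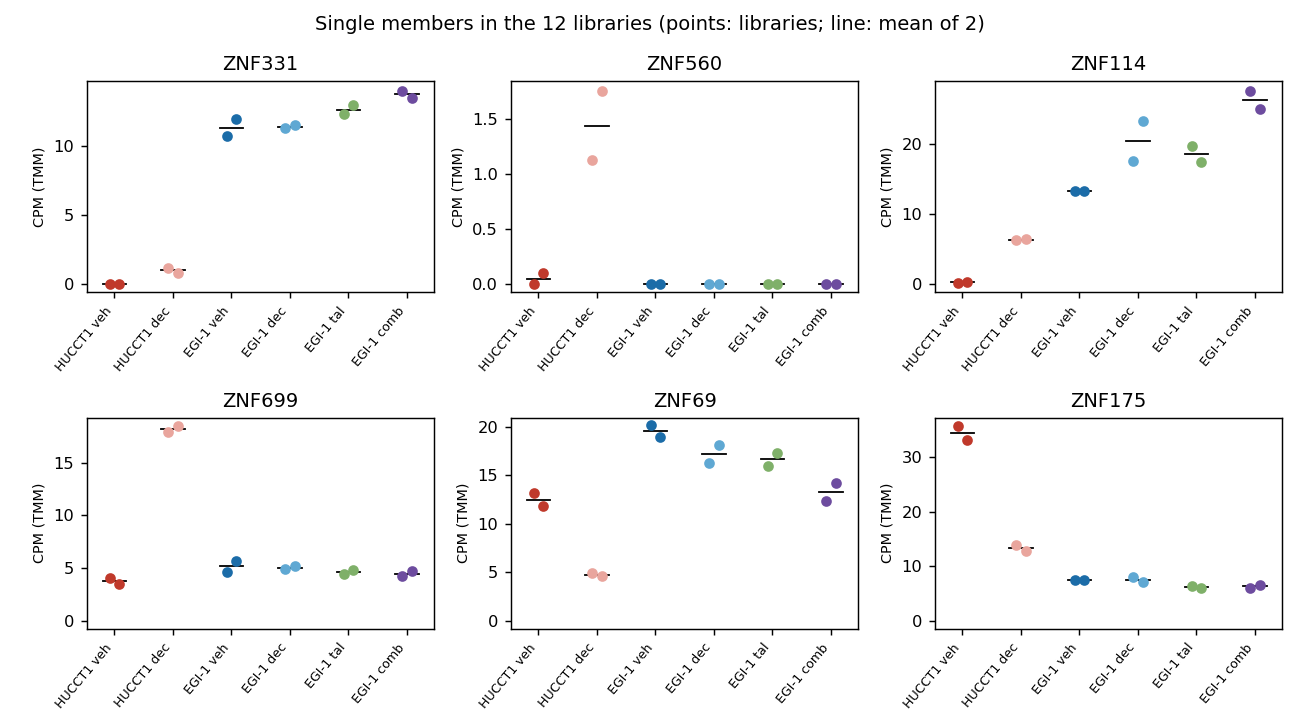
Single members in the 12 libraries, with CPM on the y axis of each panel and the arms on the x axis; each point is 1 library and each line the mean of 2. ZNF331, ZNF560, ZNF114 and ZNF699 were higher and ZNF69 and ZNF175 lower in both HUCCT1 decitabine libraries than in both vehicle libraries, and ZNF560 stayed at 0 in EGI-1.

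Members known for promoter methylation in tumours behaved unlike each other. Of the 10 on this list, 5 passed the HUCCT1 filter, and ZNF331 rose while ZNF132, ZNF154, ZNF577 and ZNF671 did not pass the test, with log2 fold changes of 0.20, -0.43, 0.23 and 0.11. Among the 5 below the filter, ZNF582 went from 0 and 0 to 8 and 2 counts and ZNF677 from 0 and 0 to 3 and 12, whereas ZNF177 (4 and 10 against 4 and 3), ZNF382 (2 and 0 against 5 and 0) and ZNF471 (0 and 3 against 1 and 2) showed no separation of the arms. In the untreated lines 5 of the 7 tested passed the filter in both lines, and ZNF154, ZNF331, ZNF577 and ZNF671 were lower in HUCCT1, where 27.5% of all genes that passed in both lines were, while ZNF132 was higher by 0.72 on the log2 scale. ZNF382 and ZNF582 passed through EGI-1 only and had to be lower. ZNF331 passed in HUCCT1 through its decitabine libraries only, so it had to be lower too. None of the listed members passed the test in any EGI-1 comparison with vehicle.

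The members known to bind transposable elements were lower in HUCCT1 and did not pass the test with decitabine. All 6 were called lower in untreated HUCCT1, where 27.3% of all genes were, but ZNF93 and ZNF382 passed the filter through EGI-1 only and had to be lower. The 4 that passed in both lines had a median log2 difference of -1.59. ZNF91, which represses SVA elements in primates, had 55 and 46 counts in HUCCT1 and 1057 and 1029 in EGI-1, a log2 difference of -4.42 ± 0.15 (edgeR adjusted p = 2.66e-16). ZNF808, ZNF649 and ZNF765 differed by -1.76, -1.43 and -1.20, and ZNF382 had 2 and 0 against 23 and 48 counts. With decitabine in HUCCT1 the 4 tested, ZNF91, ZNF649, ZNF765 and ZNF808, had log2 fold changes between -0.20 and 0.24, none past the threshold. ZNF93 went from 0 and 0 to 3 and 0 counts and stayed at the floor. In EGI-1, ZNF808 fell by 0.32 on the log2 scale with the combination, a call lost without combination replicate 2 (-0.36, edgeR adjusted p = 0.0655).

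The proteins that act with KRAB zinc fingers were measured as RNA of a list of 29 genes, of which 27 were tested, DAXX and EHMT2 being near 0 counts. Whether DAXX and EHMT2 lack RNA in these lines or lost reads in the counting was not tested. With decitabine in HUCCT1 13 of the 27 fell and 2 rose, where 13.9% of all genes fell and 19.6% rose, with a median log2 fold change of -0.24. TRIM28, the co-repressor itself, fell by 0.35 and SETDB1 by 0.48 on the log2 scale. ATF7IP, the partner of SETDB1, fell by 0.50, TASOR, a subunit of the HUSH silencing complex, by 0.58, and the heterochromatin protein genes CBX5 and CBX1 by 0.72 and 0.37. The histone methyltransferases SUV39H1 and EHMT1 fell by 0.96 and 0.36, ATRX by 0.76, MTA1 by 0.80 and HDAC1 by 0.45. Of the methylation machinery, UHRF1 fell by 0.71 and DNMT1 by 0.31, while DNMT3B rose by 0.57, as did CHD4 by 0.32. In EGI-1 none passed the test with either single agent, and with the combination SETDB1, UHRF1, ATF7IP, TASOR, EHMT1 and TRIM28 fell by 0.42, 0.38, 0.34, 0.34, 0.32 and 0.18, while DNMT3B and HDAC1 rose by 0.43 and 0.25, where 7.61% of all genes fell and 11.1% rose. Without combination replicate 2, the library with leukocyte transcripts, the calls for EHMT1 (-0.29, edgeR adjusted p = 0.0632) and TRIM28 (-0.15, adjusted p = 0.244) were lost and the other 4 falls and both rises were still called. Between the untreated lines 10 were higher and 11 lower in HUCCT1, where 28.5% and 27.3% of all genes were. The other 12 machinery genes tested in HUCCT1 did not pass the test with decitabine. They were CBX3, DNMT3A, TRIM24, TRIM33, HDAC2, SUV39H2, MTA2, CHD3, MPHOSPH8, PPHLN1, MORC2 and SMARCAD1.

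In EGI-1, decitabine alone called 1 of 216 members higher, or 0.463%, and 0 lower, where 0.544% of all 22406 genes were called, 0.518% higher and 0.0268% lower. The member was ZNF114, with 13.4 and 13.3 CPM under vehicle and 17.5 and 23.3 CPM with decitabine, a log2 fold change of 0.62 ± 0.12 (edgeR adjusted p = 0.0275), a call lost in 6 of 15 other settings, leaving 0 called without either vehicle library or without decitabine replicate 2. The lowest decitabine library was above both vehicle libraries. An unadjusted p under 0.05 was reached by 5 of the 216 members. This was not set beside the share of all genes, and nothing is read from it. Talazoparib called 2 members higher and 2 lower, 1.85% in all where 4.12% of all genes were called, 2.83% higher and 1.29% lower. ZNF114 stood at 19.8 and 17.5 CPM and ZNF296, a factor known from pluripotent cells, at 12.8 and 12.8 CPM against 8.69 and 9.89 CPM with vehicle, log2 fold changes of 0.48 and 0.47. ZNF83 fell from 30.4 and 32.4 to 24.2 and 25.2 CPM and ZNF561 from 30.4 and 29.8 to 24.1 and 23.8 CPM, by 0.34 and 0.33 on the log2 scale. Each of these 4 calls was lost without any 1 of the 4 libraries compared, leaving 0 members called, whereas without either decitabine library, which enter only the estimate of the spread, 5 members were called lower.

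The combination in EGI-1 lowered more members than it raised. It called 5 higher, or 2.31% where 11.1% of all genes rose, and 18 lower, or 8.33% where 7.61% of all genes fell, and the members' median log2 fold change was -0.12 against -0.02 for all genes. With upper-quartile scaling 4 members were higher and 26 lower, where 9.72% of all genes were higher and 10.0% lower. ZNF114 reached 27.6 and 25.0 CPM from 13.4 and 13.3, a log2 fold change of 0.97 ± 0.12 (edgeR adjusted p = 2.26e-05), and ZNF296 reached 14.4 and 13.9 from 8.69 and 9.89 CPM, 0.60 ± 0.11 (adjusted p = 0.00105). ZNF83 fell from 30.4 and 32.4 to 21.6 and 22.2 CPM (-0.53 ± 0.08, adjusted p = 0.000276), ZNF559 from 10.8 and 10.8 to 6.57 and 6.61 CPM (-0.72 ± 0.14, adjusted p = 0.00113), ZNF225 from 5.90 and 5.72 to 3.68 and 3.42 CPM (-0.72 ± 0.16) and ZNF69 from 20.1 and 18.9 to 12.3 and 14.2 CPM (-0.57 ± 0.11). In these 6 genes the arms did not overlap, and the call held in every alternative tried. ZNF606 (-0.61), ZNF497 (-1.11), ZNF701 (-0.48) and ZNF573 (-0.45) fell and ZNF428 (0.49), ZNF324 (0.35) and ZNF581 (0.34) rose on the log2 scale with calls lost in at least 1 other setting each, ZNF428 losing it in 10 of 15 and ZNF497 and ZNF573 in 8 of 15 each. The other 10 falling members ranged from ZNF548 with -0.42 to ZNF266 with -0.28.

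Without combination replicate 2, the library with leukocyte transcripts, 3 members were called higher and 12 lower, and all 23 kept their sign, 12 of them still called. The share of all genes called was then 6.88% higher and 3.85% lower. Without combination replicate 1, 3 were called higher and 8 lower, without vehicle replicate 1, 2 and 8, and without vehicle replicate 2, 2 and 6, whereas without either decitabine library 8 were called higher. The fitted values changed little for the 6 genes above, with ZNF114 at 1.05, ZNF296 at 0.63, ZNF83 at -0.54, ZNF559 at -0.72, ZNF69 at -0.67 and ZNF225 at -0.67, while ZNF497 moved to -0.80 with an adjusted p of 0.28 by edgeR.

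**Figure D5:**
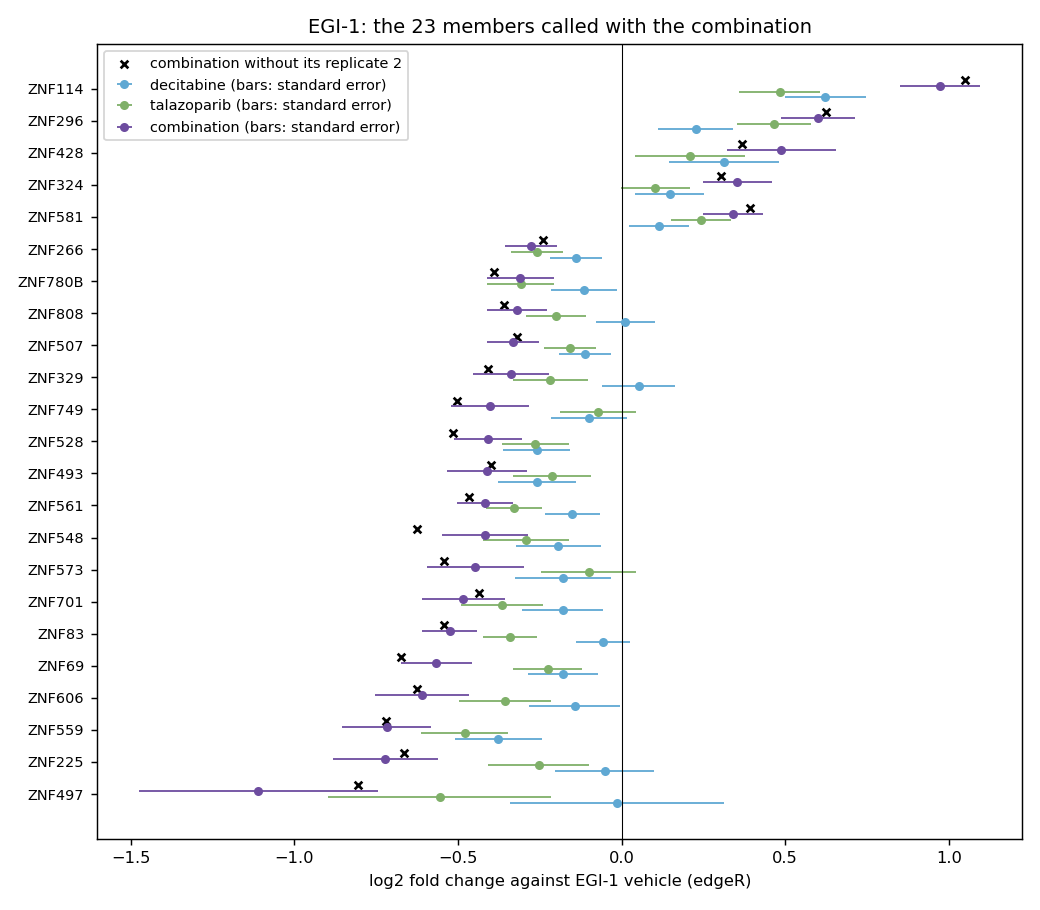
Log2 fold change against vehicle (x axis) in EGI-1 for the 23 members called with the combination (y axis), with points for decitabine, talazoparib and the combination and bars of ± 1 SE; crosses give the combination without its replicate 2. All 23 crosses lie on the same side of 0 as the combination points, and the 3 comparisons share their vehicle libraries.

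The combination was also set against each agent alone. Against decitabine, 7 members were lower and 1 was higher, 3.70% where 7.68% of all genes were called, 4.42% higher and 3.26% lower. The lower ones were ZNF225 (-0.67), ZNF613 (-0.62), ZNF83 (-0.47), ZNF585A (-0.46), ZNF329 (-0.39), ZNF69 (-0.39) and ZNF808 (-0.33), and ZNF296 was higher by 0.38 in a call lost in 14 of 15 other settings. Only the call for ZNF83 was never lost. The 7 lower calls became 1 without either combination library and 2 without either vehicle library, and the 1 higher call became 3 without decitabine replicate 2. Against talazoparib ZNF114 alone was called, with a log2 fold change of 0.49 ± 0.12 (edgeR adjusted p = 0.0431), 0.463% of members where 1.92% of all genes were called and 1.36% were called higher. This call was lost in 9 of 15 other settings, including without any 1 vehicle, talazoparib or combination library. On the log2 scale, an effect of both agents beyond their added single effects was called for 0 of 216 members by edgeR, where 0.161% of all genes were called (0.00893% above the sum), and 4 members had an unadjusted p under 0.05. The smallest of these p-values belonged to ZNF613 and ZNF585A, with departures of -0.59 and -0.50 on the log2 scale. These 4 were not set beside the share of all genes, and nothing is read from them.

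An interaction term set the decitabine effect of HUCCT1 against that of EGI-1 over the 12 libraries. It differed for 36 of 219 members, or 16.4%, where 15.9% of all genes tested differed, with 24 more positive and 12 more negative in HUCCT1, against 8.74% and 7.2% of all genes. Without HUCCT1 decitabine replicate 1 the 24 became 14, and without either EGI-1 vehicle library the 12 became 7. The doses differ, 1 µM in HUCCT1 and 0.5 µM in EGI-1, as do the medium and a mark in the column names. Line cannot be told apart from these. ZNF114 rose in both lines, by 4.65 in HUCCT1 and by 0.62 in EGI-1 on the log2 scale, and the difference was 4.04 ± 0.31 (edgeR adjusted p = 4.61e-09). For ZNF175, ZNF69 and ZNF865 the fall in HUCCT1 exceeded the change in EGI-1 by 1.39, 1.21 and 1.02 on the log2 scale. ZNF418 went from 0 and 0 to 11 and 3 counts in HUCCT1 and from 14 and 18 to 10 and 21 in EGI-1, so only the HUCCT1 arms were apart.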

How the data were processed

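RNA sequencing of 12 libraries of the lines HUCCT1 and EGI-1 was used. The authors deposited 1 table of raw counts per gene, whole numbers without normalization, with versioned Ensembl identifiers. The study's methods name fastp, STAR and RSEM on GRCh38 and describe EGI-1 only, while the submitters' processing notes list fastp, Trim Galore, HISAT2 and featureCounts. Strand use, multimapped reads and annotation are not given in the sources used here, so counts of near-identical paralogs and of overlapping genes are uncertain. Identifiers were matched to GENCODE 44 (60437 of 60651 rows).

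The deposited counts entered edgeR 4.0.16 (R 4.3.3) for testing (filterByExpr by arm with a minimum count of 10, TMM, robust quasi-likelihood fit, two-sided, Benjamini-Hochberg, adjusted p under 0.05), with the HUCCT1 libraries (22479 genes), the EGI-1 libraries (22406) and all libraries (25096) fitted apart. The pipeline was tested on simulated data. Level bounds use 3 counts per library as the floor and intervals are exact at 95%. Fingers were counted in the longest GENCODE protein by the pattern of paired cysteines and histidines, and KRAB by a loose pattern of its A box, which may miss or add members. Replicates differed by more than counting noise, with a chi-square per gene of 2.73 to 12.6.

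Members, lists and rules were chosen with earlier results of these data known. Named members are the 8 with the largest called rise and fall in each treatment comparison (mean log2 CPM of at least -1, arms apart), the 5 highest per kilobase in each untreated line, the 8 highest in one line among those at the floor of the other, the short lists, and the 5 largest differences between lines in each direction. DESeq2 1.42.0, upper-quartile scaling, no filter, fits of 4 libraries, a replicate block, leaving out each library, and members without exon overlap were tried as alternatives.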

Additional observations from a re-analysis of the deposited data

Results flagged for a closer look

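The decitabine effect differed between HUCCT1 and EGI-1 for 36 of 219 members, where 15.9% of all genes tested differed, a share close to that of the members. The test was of the difference itself (an interaction term in edgeR over 12 libraries, Benjamini-Hochberg adjusted p under 0.05). The 5 with the largest positive differences, HUCCT1 minus EGI-1 on the log2 scale, were ZNF331 with 7.88, ZNF256 with 6.60, ZNF418 with 5.77, ZNF880 with 5.17 and ZNF114 with 4.04. For the first 4 the vehicle counts of HUCCT1 were 0 in both libraries, so the fitted value depends on the prior count. The 5 with the largest negative differences were ZNF175 with -1.39, ZNF69 with -1.21, ZNF865 with -1.02, ZNF799 with -1.02 and ZNF254 with -0.96. Under the alternatives the call was lost in 4 of 17 for ZNF418, in 3 for ZNF880 and ZNF254, and in 2 for ZNF799. HUCCT1 received 1 µM and EGI-1 0.5 µM, and the medium and a mark in the column names differ too. The difference between lines cannot be told apart from these.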

How the results depend on the processing

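Of 889 alternative values for single members, 727 kept their call and 0 reversed. Of 288 alternative counts of called members, 206 stayed within 1.5 times the value reported. Counts are given as higher and lower.

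Among the 98 members without exon overlap, and so with fewer genes counted, the calls were 13 and 9 for HUCCT1 decitabine, 0 and 0 for EGI-1 decitabine, 1 and 1 for talazoparib, 1 and 6 for the combination, 3 lower for the combination against decitabine, 0 for it against talazoparib, 12 and 4 for the difference between lines in the decitabine effect, and 10 and 62 for the untreated lines.

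The same replicate numbers did not pair the samples, since the correlations of same-numbered deviations lay between -0.06 and 0.09. A replicate block by these numbers gave 26 lower for HUCCT1 decitabine, where 20.7% of all genes were lower, 0 for EGI-1 decitabine, 1 and 0 for talazoparib, 0 and 2 for the combination against decitabine and 0 for it against talazoparib. A replicate block by the series in the library names, added after seeing the data, gave 0, 1 and 0, 0 and 4, and 0 in the last 4 of these.

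Fits of the 4 libraries compared alone gave 0 for EGI-1 decitabine, 5 lower for talazoparib, 8 and 29 for the combination, and 0 and 1 for it against decitabine. DESeq2 gave 11 lower for the combination and 0 and 2 for it against decitabine. Upper-quartile scaling gave 0 higher for the combination against decitabine and 0 for it against talazoparib. That scaling also moved the split of all genes called with the combination from 11.1% higher and 7.61% lower to 9.72% and 10.0%, and the members to 4 and 26, and it moved the median of all genes between the untreated lines to -0.13. No filter gave 2 higher for the combination against decitabine.

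Leaving out 1 library gave 16 to 21 higher for HUCCT1 decitabine, 0 to 1 higher for EGI-1 decitabine, 0 to 2 higher and 0 to 5 lower for talazoparib, 2 to 8 higher and 6 to 27 lower for the combination, 0 to 3 higher and 1 to 7 lower for it against decitabine, 0 to 1 for it against talazoparib, and 14 to 23 higher and 7 to 13 lower for the difference between lines. The lowest values came without HUCCT1 decitabine replicate 1 (16 and 14) and without EGI-1 vehicle replicate 1 or 2 (7). The causes were not tested. At 3 counts or fewer a level cannot be told from 0 at this depth.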

Other observations

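There were 20 members at 3 counts or fewer in each library of all 6 arms, namely ZNF625, ZNF682, ZNF90, ZNF486, ZNF85, ZNF208, ZNF257, ZNF676, ZNF729, ZNF98, ZNF492, ZNF99, ZNF723, ZNF728, ZNF730, ZNF610, ZNF578, ZNF667, ZNF835 and ZNF135. At the other end, 179 members were above this floor in every arm. ZNF611 was called higher in untreated HUCCT1, with 189 and 130 counts against 9 and 6 in untreated EGI-1, though it lies in cluster 6. There 27 of the 30 members that passed the filter in both lines were lower. Within the spans of the clusters, other genes tested in HUCCT1 with decitabine had 14 higher and 2 lower of 32 in cluster 5 and 0 higher and 0 lower of 14 in cluster 6 (edgeR), where the members had 3 higher and 0 lower of 24 and 8 higher and 4 lower of 30. Of all genes tested in that comparison, 19.6% were higher and 13.9% lower.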
